A study of Mus musculus with 6 samples.

Results

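Xdh and 7 further genes of purine breakdown, purine salvage and extracellular adenosine handling were followed in endothelial cells (EC) of the mouse lung during the passage from infancy to young adulthood. The 8 genes were Xdh, Pnp, Hprt, Ada, Adk, Nt5e, Entpd1 and Gda, taken from the 12623 genes of the RPKM table by their symbols (RPKM, a read density scaled to the length of the transcript and to the mapped reads of the library). Xdh was selected on its RPKM in these same libraries, which was known to be higher in the young adults, and the other genes share its pathway, so the difference of the 8 genes between the ages is given here as a description. Whether a gene met the thresholds applied to all genes is stated, but no p is given for the 8 genes and nothing is inferred from it. The study compared EC of C57BL/6N mice at 2 ages, infant and young adult, with 3 biological replicates each, to follow the change from a growing to a quiescent vessel wall. No transgene, knockout or treatment is named for either group. EC were sorted from digested lungs as viable CD31+ CD34+ cells that lacked PTPRC, LYVE1, LY76 and PDPN. The infant animals were in their second postnatal week according to the methods, which also describe the mice as female, and whether a replicate was 1 animal or a pool was not stated.

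The endothelial markers Pecam1 (309.8 to 657.8 RPKM) and Cdh5 (213.8 to 316.9 RPKM) were present in all 6 libraries. Of the antigens used for the sort, Cd34 ranged from 422.7 to 500.6 RPKM in the infant and from 254.4 to 354.8 RPKM in the young adult libraries, and Lyve1, against which the cells were sorted, from 68.6 to 171.4 and from 252.9 to 396.4 RPKM. The summed RPKM of 11 epithelial markers (6501 to 11360) exceeded that of 12 endothelial markers (3072 to 4538) in each infant library. The same held in young adult replicate 3 (8379 against 5392), but not in young adult replicates 1 (1838 against 4980) and 2 (4827 against 5240). Between 10694 and 11860 genes reached 1 RPKM in a library. The infant libraries stood apart from the young adult libraries in more than age. The 4 Y-linked genes Ddx3y, Eif2s3y, Uty and Kdm5d measured 2.1 to 21.9 RPKM in the infant libraries and 0 in all young adult libraries, so that age and the presence of cells from male animals cannot be told apart. The summed RPKM of 12 fibroblast markers ranged from 351.7 to 1493 in the infant and from 11.8 to 27.4 in the young adult libraries, and that of 12 mural markers from 112.8 to 307.7 and from 17.5 to 25.2. Infant replicate 2 held the smallest share of these transcripts among the infant libraries and correlated less with the other infant libraries (Pearson r 0.963 and 0.964 over genes) than these did with each other (0.987). All values are relative to the RNA of a library, so fewer cells with a transcript and less of it per cell cannot be told apart.

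Purine nucleotides that leave a cell are trimmed step by step on the cell surface. ENTPD1 (CD39) removes phosphates from ATP and ADP to give AMP, and NT5E (CD73) turns AMP into adenosine, a signal that limits inflammation and tightens the endothelial barrier. Inside the cell, ADK returns adenosine to AMP, whereas ADA deaminates it to inosine. PNP splits inosine into hypoxanthine, HPRT recovers hypoxanthine and guanine for nucleotide synthesis, GDA deaminates guanine to xanthine, and XDH, a molybdenum enzyme that can also produce reactive oxygen species, oxidizes hypoxanthine and xanthine to urate. Vascular endothelium is a well known site of XDH.

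All 8 genes passed the filter of at least 1 RPKM in at least 1 library. By the call rule used across all genes (limma on log2(RPKM + 1), adjusted p under 0.05 and a log2 fold change beyond 0.81 in either direction), 4 of the 8 were called, against 11.4% of all 12458 genes tested. Xdh, Ada and Entpd1 were called higher in young adult EC (3 of 8, against 3.33% of all genes), and Nt5e was called lower (1 of 8, against 8.1%). Xdh was chosen for this very contrast, and nothing is read from these shares. The infant and young adult values did not overlap for 7 genes, 6 of them higher in young adult EC (Pnp, Hprt and Adk turned lower once the libraries were rescaled to endothelial markers) and 1 lower, where 43.4% of all genes tested showed no overlap, 16.4% higher and 27.1% lower. The median log2 fold change of the 8 genes was 0.33, and that of all genes tested was -0.07.

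**Figure D1:**
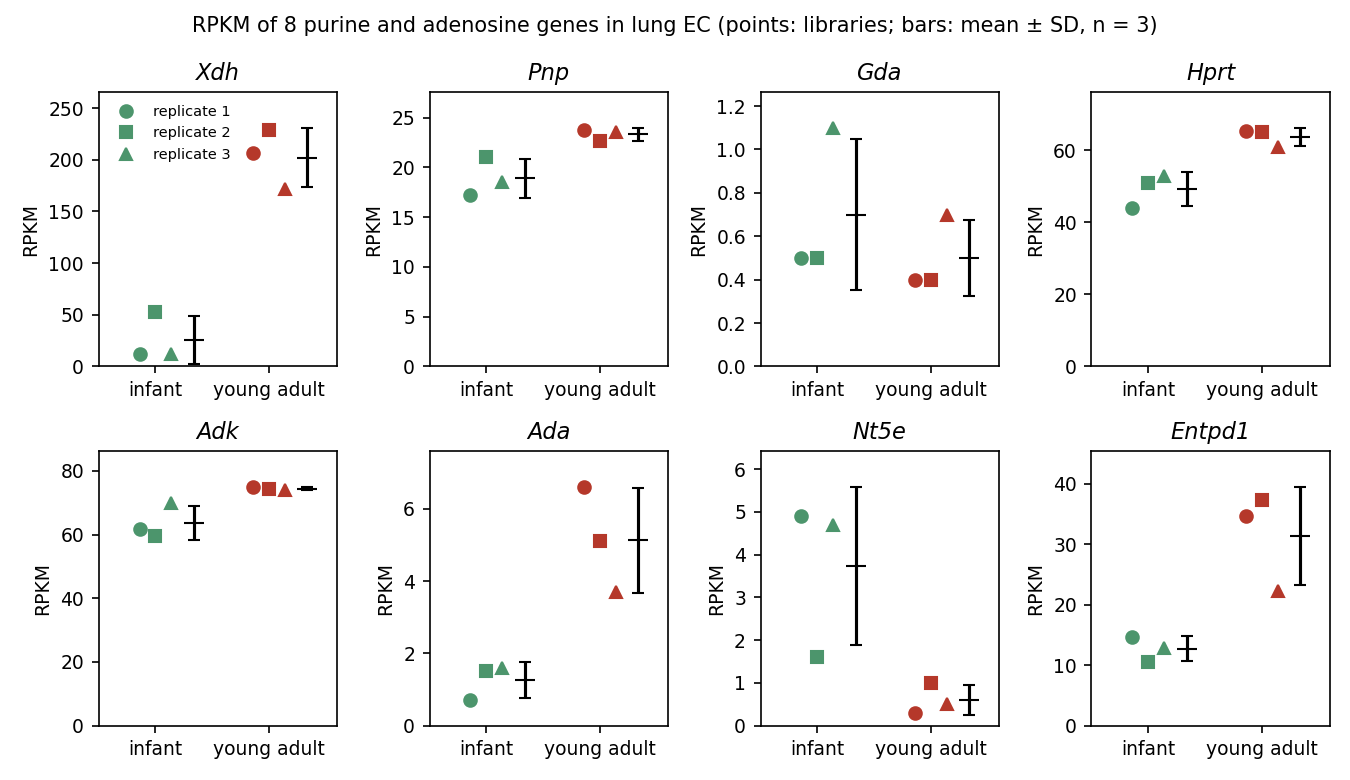
RPKM (vertical axes, each starting at 0 and with its own scale) of the 8 genes in 3 infant and 3 young adult EC libraries. Points are libraries, with the marker shape giving the replicate number, and bars show mean ± SD. Infant replicate 2 of Xdh, at 52.4 RPKM, stands between the other infant libraries and the young adult libraries, and Gda is the gene whose groups overlap.

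Xdh lies on chromosome 17 (GRCm38, 73883895 to 73950397) and had the largest difference of the 8 genes. In infant EC its level was 12.2, 52.4 and 11.8 RPKM in replicates 1, 2 and 3, and in young adult EC, in the same order, 206.8, 228.3 and 171.3 RPKM. The lowest young adult library stood 3.27-fold above the highest infant library, and within the infant group replicate 2 stood 4.37-fold above the mean of the other infant libraries. The mean rose from 25.5 ± 23.3 to 202.1 ± 28.8 RPKM (SD, n = 3), which is 7.94-fold, and the log2 fold change was 3.28 ± 0.50 (SE, on the log2(RPKM + 1) scale here and throughout). The SD was 91.6% of the mean in the infant and 14.2% in the young adult libraries. In infant EC the mean of Xdh exceeded that of 83.6% of all 12623 genes, tested or not, and in young adult EC that of 98.6%. When 1 of the 6 libraries was left out, the log2 fold change lay between 2.93 and 3.96, and it was highest without infant replicate 2.

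PNP, which supplies hypoxanthine to XDH, and GDA, which supplies xanthine, were measured next. Pnp (chromosome 14, 50944303 to 50953412) stood at 17.2, 21.0 and 18.5 RPKM in the infant libraries, against 23.8, 22.6 and 23.6 RPKM in the young adult libraries. The groups did not overlap, yet the means of 18.9 ± 1.93 and 23.3 ± 0.643 RPKM differed by a ratio of only 1.24 and Pnp was not called (log2 fold change 0.29 ± 0.10). Its close copy Pnp2 lies 2.73 kb further along the chromosome, and 7.84% of the 100-base windows of the Pnp transcript occur without a mismatch in the Pnp2 transcript. In the other direction, 17.5% of the windows of Pnp2 occur in Pnp, so that the split of reads between these genes is uncertain. Pnp2 stood at 11.3, 12.6 and 11.7 RPKM in the infant libraries, against 13.9, 12.9 and 13.7 RPKM in the young adult libraries (0.17 ± 0.09 on the log2 scale, limma adjusted p = 0.185). Gda (chromosome 19, 21391307 to 21472661) was close to the lower end of the measurable range in every library. It stood at 0.5, 0.5 and 1.1 RPKM in the infant libraries, against 0.4, 0.4 and 0.7 RPKM in the young adult libraries, the groups overlapped, and it had passed the filter only through infant replicate 3. The log2 fold change of -0.17 ± 0.19 was not called and became positive, at 0.27, after quantile normalization.

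HPRT stands at the branch where hypoxanthine is either recovered or passed on to XDH. Hprt (chromosome X, 52988078 to 53021660) stood at 43.9, 50.8 and 53.0 RPKM in the infant libraries, against 65.3, 65.1 and 60.9 RPKM in the young adult libraries. Its groups did not overlap, and the means were 49.2 ± 4.75 and 63.8 ± 2.49 RPKM. The log2 fold change of 0.37 ± 0.11 stayed under the fold threshold, so Hprt was not called. Since both genes were measured in the same libraries, the ratio of Xdh to Hprt does not depend on how a library is scaled. This ratio was 0.278, 1.03 and 0.223 in infant and 3.17, 3.51 and 2.81 in young adult EC. Per length of transcript, Xdh was thus below Hprt in infant replicates 1 and 3, about level with it in infant replicate 2, and above it in all young adult libraries.

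ADK and ADA compete for intracellular adenosine, and their transcripts differed widely in level. Adk (chromosome 14, 21052574 to 21448569) stood at 61.6, 59.5 and 69.8 RPKM in the infant libraries, against 74.9, 74.2 and 74.1 RPKM in the young adult libraries. A second transcript row of Adk gave 60.6, 58.4 and 68.9 against 72.9, 72.3 and 72.4 RPKM. The difference between the means of 63.6 ± 5.44 and 74.4 ± 0.436 RPKM was not called, with a log2 fold change of 0.23 ± 0.10, although the groups did not overlap. Ada (chromosome 2, 163726571 to 163750239) was low in infant EC, at 0.7, 1.5 and 1.6 RPKM, and measured 6.6, 5.1 and 3.7 RPKM in young adult EC. All young adult libraries lay above all infant libraries, and the mean rose from 1.27 ± 0.493 to 5.13 ± 1.45 RPKM, which is 4.05-fold (log2 fold change 1.43 ± 0.22). With a pseudocount of 5 the log2 fold change of Ada was 0.69, under the fold threshold. The ratio of Adk to Ada was 88.0, 39.7 and 43.6 in infant and 11.4, 14.6 and 20.0 in young adult EC, so that Adk remained the more abundant transcript per length in all 6 libraries.

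On the cell surface, the 2 ectonucleotidases moved in opposite directions. Entpd1 (chromosome 19, 40612366 to 40741602) stood at 14.7, 10.6 and 12.9 RPKM in the infant libraries, against 34.7, 37.3 and 22.2 RPKM in the young adult libraries. The groups did not overlap, and the mean rose from 12.7 ± 2.06 to 31.4 ± 8.07 RPKM, which is 2.47-fold (log2 fold change 1.22 ± 0.20). It was under the fold threshold once the libraries were rescaled to 12 endothelial markers, an alternative added after the data had been seen (0.79). Nt5e (chromosome 9, 88327609 to 88372089) stood at 4.9, 1.6 and 4.7 RPKM in the infant libraries, against 0.3, 1.0 and 0.5 RPKM in the young adult libraries. Its groups stayed apart by the gap between infant replicate 2 and young adult replicate 2, and the mean fell from 3.73 ± 1.85 to 0.6 ± 0.361 RPKM, with a log2 fold change of -1.50 ± 0.33. Nt5e no longer met the call rule without infant replicate 1, infant replicate 3, young adult replicate 1 or young adult replicate 3 (log2 fold changes between -1.46 and -1.29). It also failed the rule with a pseudocount of 5 (-0.62). The call held without infant replicate 2 (-1.88) or young adult replicate 2 (-1.67). Infant replicate 2, in which Nt5e was 0.333 times the mean of the other infant libraries, was also the infant library with the fewest fibroblast and mural transcripts, and the part of these cells in the Nt5e values was not tested. The ratio of Entpd1 to Nt5e was 3, 6.63 and 2.75 in infant and 115.7, 37.3 and 44.4 in young adult EC, and its denominators in young adult EC lie near the rounding step of the table.

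**Figure D2:**
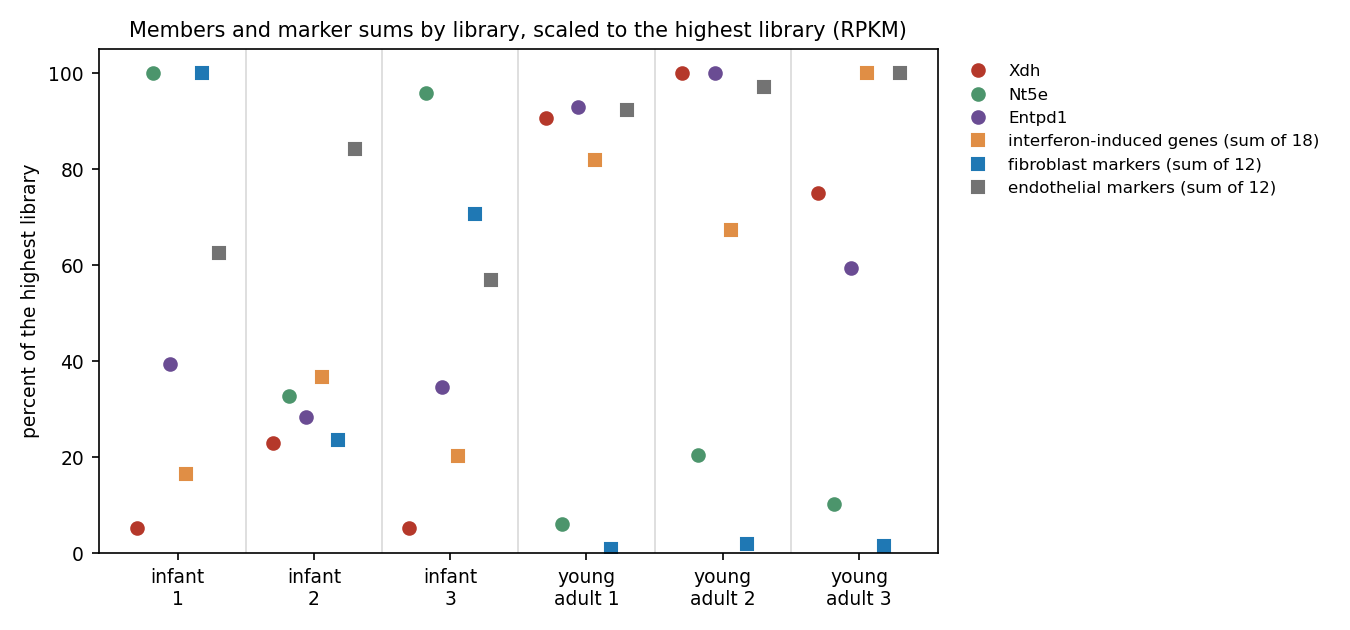
Level of Xdh, Nt5e and Entpd1 (circles) and the summed RPKM of marker genes (squares) in each of the 6 libraries, as a percentage of the highest library (vertical axis). Infant replicate 2 lies above the other infant libraries in Xdh, interferon-induced genes and endothelial markers and below them in Nt5e, Entpd1 and fibroblast markers. In Entpd1 it thus lies farther from the young adult libraries than the other infant libraries do.

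Several marker groups also differed between the ages, while the leukocyte and epithelial sums overlapped. The summed RPKM of the 12 endothelial markers was 3373, 4538 and 3072 in infant and 4980, 5240 and 5392 in young adult EC, and 1 of the 12 markers was called higher. Of 18 interferon-induced genes, 17 were called higher in young adult EC, and their sum was 824.1, 1827 and 1011 in infant and 4079, 3347 and 4976 in young adult EC. Infant replicate 2 was thus the highest infant library both for this sum and for Xdh, whereas young adult replicate 3, the highest young adult library for the sum, was the lowest for Xdh. Of the 12 fibroblast and 12 mural markers, 11 each were called lower in young adult EC, and 4 of the fibroblast markers were under 1 RPKM in all young adult libraries. All 7 erythroid markers were called lower, with sums of 9656 to 79860 RPKM in infant and 822.2 to 1351 RPKM in young adult EC. Of 10 leukocyte markers 5 were called lower (321.7 to 515.4 and 140.1 to 549.6 RPKM), and of 11 epithelial markers 1 was called higher and 4 lower (6501 to 11360 and 1838 to 8379 RPKM). No marker of the fibroblast, mural, erythroid, leukocyte or epithelial lists was at 0 in all young adult libraries. The part of these transcripts in the differences of Xdh, Ada, Entpd1 and Nt5e was not tested.

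The order of the 8 genes by level changed with age. In infant EC the mean RPKM fell from Adk over Hprt, Xdh, Pnp, Entpd1, Nt5e and Ada to Gda. The ranges of Hprt and Xdh, of Xdh and Pnp, of Nt5e and Ada, and of Ada and Gda overlapped, so these neighbours were not separated by the spread between libraries. In young adult EC Xdh came first, followed by Adk, Hprt, Entpd1, Pnp, Ada, Nt5e and Gda. Here the ranges of Entpd1 and Pnp and those of Nt5e and Gda overlapped, while Xdh stood clear of Adk.

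**Figure D3:**
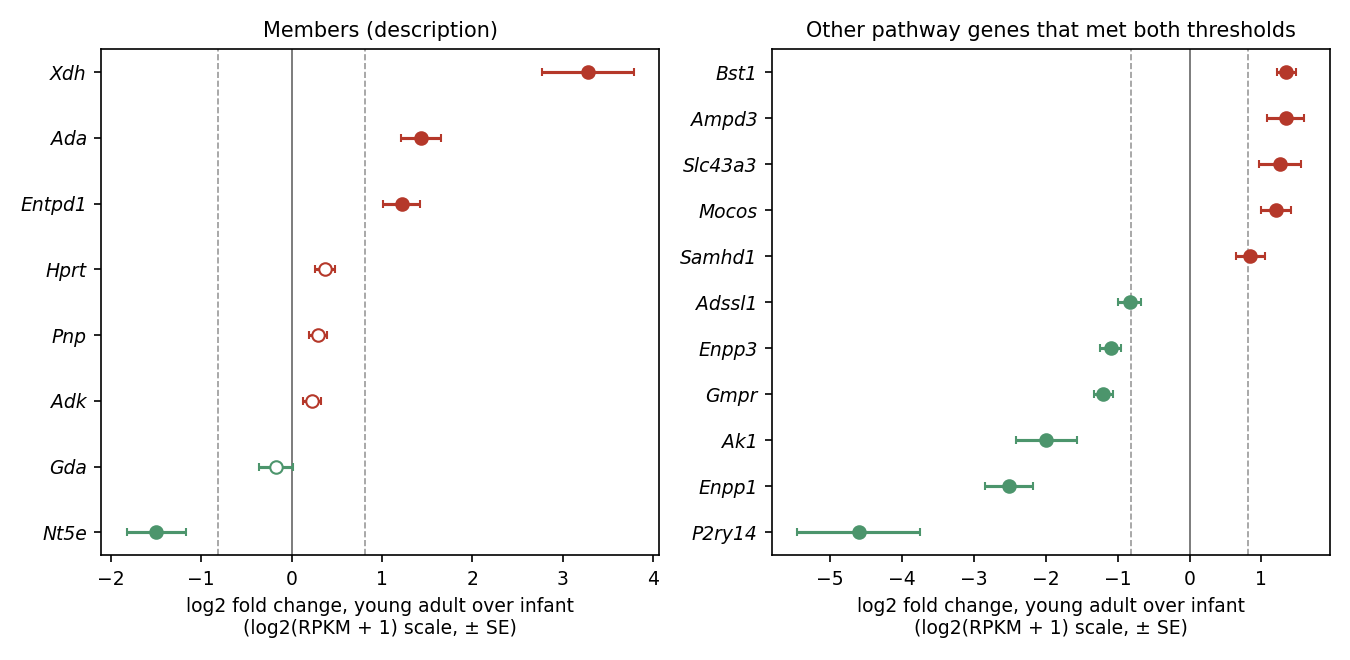
Log2 fold change, young adult over infant, with SE (horizontal axes, which differ between the panels) for the 8 genes on the left and for 11 further pathway genes that met both thresholds on the right. Filled points met both thresholds, open points did not, and dashed lines mark the fold threshold of 0.81 on the log2 scale. Xdh lies farthest to the right and Nt5e farthest to the left among the 8 genes.

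The wider purine and adenosine network was examined in 109 further genes listed by their textbook role, of which 76 were in the table and 75 were tested. Most of it showed no called difference: 11 of 75 genes were called (limma, adjusted over all genes), 5 higher (6.67%, against 3.33% of all genes) and 6 lower (8%, against 8.1%), and 27 had an adjusted p under 0.05 irrespective of fold, where 25.5% of all genes did. Among the lower genes, Adssl1, Enpp1 and Enpp3 were under 1 RPKM in all young adult libraries and passed the filter only through infant libraries. With the filter on a mean RPKM of at least 1, 10 pathway genes were called, 5 higher and 5 lower. The median log2 fold change of the 75 genes was -0.03. None of 10 tested genes of de novo synthesis, which builds purines from small precursors, was called by limma (median 0.03), and 2 of them, Prps2 and Adsl, had an unadjusted and an adjusted p under 0.05 with changes under the fold threshold. Prps2, which makes the ribose precursor of purines and is named beside the rule for its p, differed by -0.39 (adjusted p = 0.0301). Among its most abundant genes, Paics differed by 0.11 on the log2 scale (adjusted p = 0.551), and Adsl went from a mean of 20.6 to 27.3 RPKM (0.40, adjusted p = 0.041).

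Of 9 genes of the AMP and GMP branches, 1 was called higher and 2 lower. Ampd3, an AMP deaminase that feeds AMP into IMP, rose from 3.7, 8.2 and 3.7 RPKM to 14.2, 12.1 and 15.6 RPKM (1.34 ± 0.26 on the log2 scale, adjusted p = 0.0113). As for Xdh, infant replicate 2 was the highest infant library. Gmpr, which converts GMP to IMP, fell from 5.1, 4.2 and 4.2 RPKM to 1.2, 1.3 and 1.7 RPKM (-1.20 ± 0.13, adjusted p = 0.00157), and Adssl1, an adenylosuccinate synthase, from 1.0, 1.2 and 1.6 RPKM to 0.2, 0.4 and 0.2 RPKM (-0.83 ± 0.16, adjusted p = 0.0112). The latter call was lost without infant replicate 3, young adult replicate 1 or young adult replicate 3, with values between -0.92 and -0.73 over the fits without 1 library, and also after quantile normalization (-0.40, adjusted p = 0.12). Adssl1 had passed the filter only through the infant libraries, since it was under 1 RPKM in all young adult libraries. Impdh1 and Impdh2, which commit IMP to guanine nucleotides, differed by -0.03 (adjusted p = 0.94) and -0.14 on the log2 scale (adjusted p = 0.342).

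XDH needs a molybdenum cofactor that carries a terminal sulfur, which MOCOS inserts. Mocos stood at 1.6, 2.3 and 1.0 RPKM in the infant libraries, against 3.9, 5.1 and 6.0 RPKM in the young adult libraries, with no overlap between the groups (1.20 ± 0.21, adjusted p = 0.008). It was the only 1 of 7 tested genes of urate handling, aldehyde oxidases and cofactor synthesis to be called. Mocs2 (-0.16, adjusted p = 0.425) and Gphn (0.13, adjusted p = 0.407), which act earlier in cofactor synthesis, were not. Among 14 other salvage enzymes and intracellular nucleotidases, 1 was called. This was Samhd1, which degrades deoxynucleotides and belongs to the genes that interferon is known to induce, with 12, 21.4 and 13.9 RPKM in the infant libraries, against 25.9, 26.8 and 32.5 RPKM in the young adult libraries (0.84 ± 0.20, adjusted p = 0.022). Its call was close to the fold threshold and, when 1 library was left out, held only without infant replicate 2 (values between 0.68 and 1.07). It was also lost after rescaling without the globin genes (0.74) and to the endothelial markers (0.42, adjusted p = 0.0667). Nt5c, an abundant gene of the same list, differed by 0.12 on the log2 scale (adjusted p = 0.508).

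Of 13 further surface enzymes and anchors tested beside Entpd1 and Nt5e, 1 was called higher and 2 lower, and the median of the list was -0.36 on the log2 scale. Enpp1, which cleaves ATP to AMP and pyrophosphate, fell from 11.8, 3.6 and 8.8 RPKM to 0.3, 0.6 and 0.5 RPKM (-2.51 ± 0.34, adjusted p = 0.00339). Enpp3, of the same family, fell from 2.4, 3.1 and 2.4 RPKM to 0.7, 0.9 and 0.5 RPKM (-1.10 ± 0.15, adjusted p = 0.00324), and was under the fold threshold after quantile normalization (-0.78). Both Enpp1 and Enpp3 were under 1 RPKM in all young adult libraries and passed the filter only through the infant libraries. Enpp1 was, like Nt5e, lowest among the infant libraries in replicate 2, the infant library with the fewest fibroblast and mural transcripts, and the part of these cells in the values of Enpp1 was not tested. Bst1, an ectoenzyme that acts on NAD, rose from 1.9, 1.6 and 1.6 RPKM to 6.4, 6.5 and 4.8 RPKM (1.35 ± 0.13, adjusted p = 0.00127). The abundant genes Enpp2 and Cd38 were not called, with means of 100.3 against 61.0 RPKM (-0.66, adjusted p = 0.0727) and of 132.6 against 104.0 RPKM (-0.36, adjusted p = 0.195). Enpp2 differed by -0.38 without infant replicate 2, and it was called after rescaling to the endothelial markers (-1.10, adjusted p = 0.00155).

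Adora2a was the only adenosine receptor tested. It stood at 2.5, 2.1 and 1.8 RPKM in the infant libraries, against 0.6, 0.8 and 1.1 RPKM in the young adult libraries, a difference with an adjusted p of 0.0125 that stayed under the fold threshold (-0.78 ± 0.15), but passed it in several other fits, namely without infant replicate 3 (-0.85) or young adult replicate 3 (-0.88), with a pseudocount of 0.1 (-1.28), and after rescaling to a common sum (-1.06), without the globin genes (-0.84) or to the endothelial markers (-1.03). Of 6 genes of nucleotide receptors and ATP release, 1 was called. P2ry14, a receptor for UDP-sugars, fell from 116.4, 9.3 and 114.5 RPKM to 0.7, 1.5 and 1.3 RPKM (-4.60 ± 0.85, adjusted p = 0.0101). Infant replicate 2 held far less of it than the other infant libraries, as it did of fibroblast and mural transcripts, and their part in this difference was not tested. P2rx4, an ATP-gated channel of endothelium, measured 16.4, 25.8 and 16.2 RPKM against 34.6, 34.7 and 31.9 RPKM (0.79 ± 0.17, adjusted p = 0.0171) and lay just under the fold threshold. It passed the threshold without infant replicate 2 (1.005) or young adult replicate 3 (0.83), with a pseudocount of 0.1 (0.82), after rescaling to a common sum (0.91) or equal medians (0.85), and with array weights (0.93), while rescaling to the endothelial markers gave 0.37.

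Of 7 tested nucleoside and urate transporters, 1 was called. Slc43a3, which carries purine nucleobases across the membrane, rose from 80.5, 165.6 and 75.2 RPKM to 261.6, 256.7 and 209.5 RPKM (1.26 ± 0.29, adjusted p = 0.0194), again with infant replicate 2 as the highest infant library, and when 1 library was left out its call held only without infant replicate 2 or young adult replicate 3 (values between 1.06 and 1.62). Slc29a1, which equilibrates adenosine across the membrane, measured 58.7, 66.6 and 64.5 RPKM against 83.3, 97.3 and 94.7 RPKM (0.53 ± 0.11, adjusted p = 0.0143). This was too small a change to be called, and it came to 0.087 after rescaling to the endothelial markers (adjusted p = 0.669). Of 8 nucleotide kinases, Ak1 alone was called, falling from 13.6, 3.6 and 13.6 RPKM to 1.1, 2.1 and 1.4 RPKM (-1.99 ± 0.43, adjusted p = 0.016). When 1 library was left out, the call of Ak1 held only without infant replicate 2 (values between -2.55 and -1.71), in which it was lowest among the infant libraries. Guk1, a guanylate kinase, stood at 87.8, 88.2 and 90.9 RPKM in the infant libraries, against 66.3, 75.3 and 80.1 RPKM in the young adult libraries (-0.27 ± 0.11, adjusted p = 0.103). Nme2, an abundant nucleoside diphosphate kinase, differed by 0.36 on the log2 scale (adjusted p = 0.157).

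Of the 6 tested genes nearest to Xdh, 1 was called, and 4 had a lower mean in young adult EC with an adjusted p under 0.05 (limma). Over all 12458 genes tested, 2022 were lower with an adjusted p under 0.05, and 25.5% had such a p in either direction. Whether the region around Xdh differs from other regions was not tested. The called gene, Ehd3, lies 51.8 kb from Xdh and fell from 9.3, 9.0 and 10.2 RPKM to 4.2, 4.4 and 4.7 RPKM (-0.95 ± 0.09, adjusted p = 0.00132). On the other side Memo1, at 236.4 kb, differed by -0.51 on the log2 scale (adjusted p = 0.0269) and Dpy30, at 349.1 kb, by 0.20 (adjusted p = 0.299). Lclat1 (-0.60, adjusted p = 0.00625), Spast (-0.38, adjusted p = 0.0386) and Lbh (-0.15, adjusted p = 0.521) complete the region. Over all 8 genes, 2 of 20 neighbours were called (10.0%, against 11.4% of all genes), both lower, namely Ehd3 and Wisp2, which lies 70.5 kb from Ada (-1.04, adjusted p = 0.0122). Wisp2 stood at 1.9, 0.8 and 1.4 RPKM in the infant and 0.0, 0.2 and 0.2 RPKM in the young adult libraries. It had thus passed the filter only through infant libraries. Pkig, which ends 0.413 kb from Ada, differed by 0.64 on the log2 scale (adjusted p = 0.0044) and stayed under the fold threshold. The closest neighbours of Adk and Entpd1 were Ap3m1, 21 bases from Adk (-0.06, adjusted p = 0.678), and Tctn3, 42 bases from Entpd1 (0.22, adjusted p = 0.23), and neither was called. These distances are between whole genes. The measured Entpd1 transcript starts farther from Tctn3, after position 40659769, whereas the whole gene starts at 40612366.

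The genes most like Xdh across the 6 libraries were ranked by Pearson correlation on the log2(RPKM + 1) scale, as a description over points that share 2 age groups. Thbd, which encodes the anticoagulant receptor thrombomodulin, came first (r = 0.9989), with 256.6, 375.5 and 257.3 RPKM in the infant libraries, against 527.4, 527.7 and 513.5 RPKM in the young adult libraries. It was followed by Sp100 (0.9984), 2310001H17Rik (0.9982), the epoxide hydrolase gene Ephx1 (0.9981) and Dhx58 (0.9969). Ephx1 measured 31.2, 66.5 and 32.4 RPKM against 132.6, 158.5 and 127.9 RPKM, so that infant replicate 2 again lay between the other infant libraries and the young adult libraries. The genes most like Ada were Idi1 (0.9913), Crim1 (0.9901) and Vps45 (0.9896), those most like Entpd1 were Gna14 (0.9934), Pi4ka (0.9928) and Aldh2 (0.9924), and those most like Nt5e were Tab1 (0.9991), Net1 (0.9984) and Ywhaq (0.9971).

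**Figure D4:**
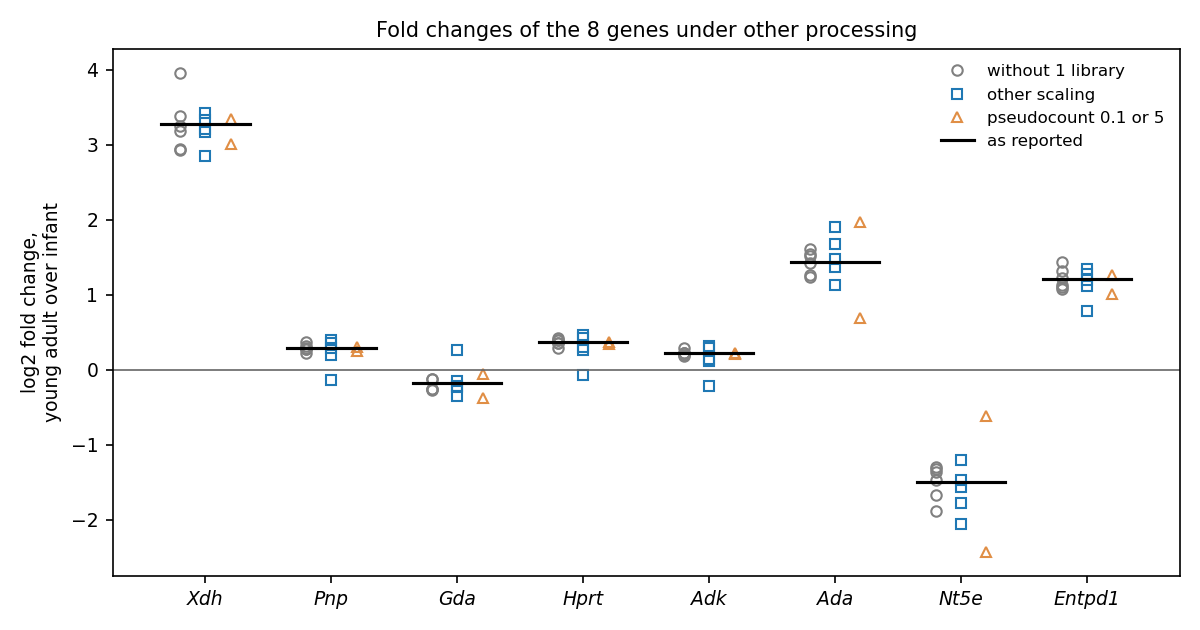
Log2 fold change of the 8 genes (vertical axis) as reported (black line) and after leaving out 1 library (circles), under other scalings (squares) and with pseudocounts of 0.1 or 5 (triangles). Xdh stays between 2.85 and 3.96 in all fits drawn, while Pnp, Hprt and Adk pass below 0 under the scaling to endothelial markers (-0.13, -0.07 and -0.22).

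RefSeq promoter sequence (GRCm38.p6, the 250 bases before a start site) was at hand for 7 of the 8 genes, all but Xdh. Of the genes called higher in young adult EC, the promoter of Ada and the start of the measured Entpd1 transcript are printed because these genes differed in the same direction as Xdh. Capitals mark matches to 2 of 5 motifs searched on both strands, the STAT motif TTCNNNGAA and the SP1 family motif GGGCGG.
Ada, chr2:163750240-163750489, minus strand: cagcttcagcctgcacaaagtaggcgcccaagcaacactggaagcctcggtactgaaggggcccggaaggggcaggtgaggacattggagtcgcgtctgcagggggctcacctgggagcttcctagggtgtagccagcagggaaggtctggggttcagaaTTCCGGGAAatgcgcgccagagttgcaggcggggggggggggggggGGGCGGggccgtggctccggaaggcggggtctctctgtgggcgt
Entpd1, chr19:40659520-40659769, plus strand: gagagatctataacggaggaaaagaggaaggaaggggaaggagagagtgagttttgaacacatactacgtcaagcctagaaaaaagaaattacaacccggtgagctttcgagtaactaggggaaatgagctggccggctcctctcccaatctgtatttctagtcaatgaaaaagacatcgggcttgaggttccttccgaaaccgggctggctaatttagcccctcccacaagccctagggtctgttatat
The Ada promoter held 1 match to each of these motifs, with the STAT match starting at position -90 from the start site, and the Entpd1 promoter held none of the 5. The STAT motif occurred in 7.02% and the SP1 motif in 32.7% of all 32851 promoters of this length, and in 1 and 5 of the 7 genes. The interferon response motif, GAAA followed after 2 bases by another GAAA and present in 2.98% of all promoters, was found in 0 of the 7 genes, as was the E-box CACGTG (6.02%). The aryl hydrocarbon receptor core GCGTG (28.2%) was found in 3 of them, namely Nt5e, 1 start site of Adk and a further start site of Entpd1. The 7 genes had 9 start sites, and a gene was counted if any of its start sites held the motif, whereas the shares are of single promoters. A match is a description of the sequence and was not tested for binding.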

How the data were processed

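RNA-seq of sorted lung EC from 3 infant and 3 young adult C57BL/6N mouse samples was analysed, with groups and replicate numbers taken from the sample titles. RNA was isolated with a PicoPure kit, amplified with the SMARTer Ultra Low kit, which multiplies small amounts of polyadenylated RNA by PCR, and sequenced as paired ends on a HiSeq2000. The authors aligned reads to mm10 with STAR and used the RefSeq annotation. The STAR version and the program behind the RPKM are not given in the sources used here. The deposited values were the authors' RPKM, rounded to 1 decimal, in 17241 transcript rows. Read counts were not analysed here, so the depth of a library is unknown and no counting error could be attached.

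The row with the highest mean was kept for each of 12623 genes, after 24 rows whose symbols had turned into dates were restored. The count-based test of the study cannot be run on RPKM. Instead, limma 3.58.1 (R 4.3.3; lmFit, eBayes with trend) was fitted on log2(RPKM + 1) to the 12458 genes that reached 1 RPKM in any library, with Benjamini-Hochberg adjustment. A gene was called at an adjusted p under 0.05 and over 1.75-fold. Such fold changes understate those of low genes. The fit was tested on simulated data in which only genes above a minimum mean level were changed, so the test does not cover low genes. Pairwise overlap, order and ratios are descriptions.

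The 8 genes and all lists were chosen with earlier results of these data known. Beside them, the named genes were, in each pathway list, the called genes and the 2 most abundant genes, the 3 nearest tested genes on each side of Xdh and the nearest on each side of the other members, and the 5 genes most like Xdh and the 3 most like each other called member among genes whose mean reached 5 RPKM. Positions are whole genes in RefSeq GRCm38.p6, whose coordinates equal those of mm10. Pnp and Pnp2 windows were compared in GENCODE transcripts. Alternatives changed the pseudocount, filter, scaling, weights, trend, transcript rows, fold threshold and replicate block, or left out each library in turn.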

Additional observations from a re-analysis of the deposited data

How the results depend on the processing

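With 3 libraries a group, no depth and values rounded to 0.1, the rounding step weighs most in the low genes Nt5e, Gda and Ada. Of the 8 genes, 4 were called, 2 with a pseudocount of 5 (Xdh and Entpd1), and 3 to 4 without 1 library. Pathway genes called numbered 11, against 21 with a pseudocount of 0.1, 5 with a pseudocount of 5 (Adssl1 -0.25, Gmpr -0.57, Enpp3 -0.42, Bst1 0.70, Mocos 0.59 and Samhd1 0.71 were then under the fold threshold), 20 after rescaling to a sum of 1000000, 19 after rescaling to the endothelial markers (added after seeing the data), 27 with no fold threshold and 7 to 14 without 1 library, the lowest without young adult replicate 1. All genes called numbered 1424, against 578 with a pseudocount of 5, 2371 after the endothelial rescaling, 3176 with no fold threshold and 842 to 1874 without 1 library. Neighbours called numbered 2, against 4 and 0 with pseudocounts of 0.1 and 5, 1 with the filter on mean RPKM, 1 after quantile normalization, 7 after the endothelial rescaling, 9 with no fold threshold and 1 to 4 without 1 library. Gene RPKM summed to between 267437.3 and 338740.1 in a library, so rescaling to a sum of 1000000 raised all values while the pseudocount stayed at 1. The pseudocount thus weighed less in that fit. What caused the differences between these counts was not tested. The endothelial rescaling moved the median of all log2 fold changes from -0.07 to -0.44, and quantile normalization moved it to 0.04. Relative to that median, Pnp (0.31), Hprt (0.37) and Adk (0.23) stayed above 0 under the endothelial rescaling. It also reversed Adsl (-0.028), Gphn (-0.28), Nme2 (-0.083), Nt5c (-0.32) and Paics (-0.32), none of them called. Impdh1 reversed to 0.059 after rescaling to a common sum of 1000000, 0.031 with equal medians and 0.12 with array weights, and it ranged from -0.22 to 0.18 over the fits without 1 library (0.18 when infant replicate 2 was left out, 0.16 when it was young adult replicate 1). Paics reversed to -0.011 without infant replicate 1. Replicate numbers did not pair the libraries (correlations of deviations 0.028, -0.11 and -0.021), and with the replicate block 4 of the 8 genes, 11 pathway genes, 2 neighbours and 1371 of all genes were called.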
